A study of Rattus norvegicus with 8 samples.

Results

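Vcan (versican, Cspg2 in the authors' tables), Hapln1 (hyaluronan and proteoglycan link protein 1) and Ptn (pleiotrophin) were examined in the medial prefrontal cortex of adult rats. They were selected on the authors' own fold and p criteria for PNFLX against CONTROL, by name from the deposited lists of probes that met them. Each had 1 probe there, so they made up 3 of 450 listed probes and 3 of 422 listed genes with a current symbol. Ptn was listed as higher, and Vcan and Hapln1 as lower. All 8 arrays were of whole mPFC from rats aged 6 months, hybridised in 1 colour (Cy3) to an Agilent rat array that gave values for 15207 probes. The 4 PNFLX arrays came from rats given fluoxetine at 10 mg/kg as pups, from postnatal day 2 to 21. Fluoxetine is a selective serotonin reuptake inhibitor. The 4 CONTROL arrays came from rats given a 5% sucrose vehicle over the same days. The labels used here name no strain, sex or litter. Groups follow the sample titles, although the free-text descriptions of CONTROL 2, 3 and 4 mention fluoxetine. Nothing in the labels says whether each array stands for its own animal. Errors and p-values therefore measure the spread between these arrays, which may be technical, and their number limits the precision.

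Versican is a large chondroitin sulfate proteoglycan of the extracellular matrix. Its N-terminal domain binds the polysaccharide hyaluronan, and link protein binds both partners and holds the complex together. In the brain such complexes form the loose matrix between cells and, with related proteoglycans, the perineuronal nets that surround many interneurons and mature late in postnatal life. Versican is also made by oligodendrocyte precursors. Pleiotrophin is a small secreted growth factor that binds heparan and chondroitin sulfate chains, and its receptors include the phosphatase Ptprz1 and syndecans. In cortex it is known from glia, neurons and vessel cells.

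The stretches just upstream of the transcript starts are shown because Vcan and Hapln1, listed in the same direction, lie next to each other in the genome, while Ptn is on another chromosome. In the RefSeq gene table for the GRCr8 assembly, Hapln1 and Vcan are neighbours on chromosome 2 with 0 protein-coding genes between them. The next such genes on either side, Edil3 and Xrcc4, are not among the listed genes, nor are Chrm2 and Dgki, which flank Ptn on chromosome 4. Each sequence is the 250 bases before a transcript start, from RefSeq (GRCr8), read 5′ to 3′ on the gene's strand. The Vcan stretch is chr2:22595956-22596205 on the minus strand, the Hapln1 stretch chr2:22366717-22366966 on the plus strand and the Ptn stretch chr4:66342333-66342582 on the minus strand. The Ptn start used in the table lies within the gene's RefSeq span. Capitals mark matches to 5 motifs, each searched on both strands. The TATA box was searched as TATAAA and the CCAAT box by its own letters. The GC box was searched as GGGCGG. For the AP-1 site the letters were TGANTCA, and an E-box was searched as CAGCTG.
Vcan: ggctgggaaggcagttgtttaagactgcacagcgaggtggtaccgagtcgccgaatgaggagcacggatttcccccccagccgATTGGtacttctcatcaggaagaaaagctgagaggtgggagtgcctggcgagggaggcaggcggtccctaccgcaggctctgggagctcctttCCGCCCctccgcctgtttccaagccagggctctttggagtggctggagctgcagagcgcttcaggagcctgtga
Hapln1: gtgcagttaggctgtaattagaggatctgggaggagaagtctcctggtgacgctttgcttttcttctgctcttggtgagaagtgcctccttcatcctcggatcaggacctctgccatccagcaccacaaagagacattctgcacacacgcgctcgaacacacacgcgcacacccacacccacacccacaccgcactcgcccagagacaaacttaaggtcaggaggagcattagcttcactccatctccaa
Ptn: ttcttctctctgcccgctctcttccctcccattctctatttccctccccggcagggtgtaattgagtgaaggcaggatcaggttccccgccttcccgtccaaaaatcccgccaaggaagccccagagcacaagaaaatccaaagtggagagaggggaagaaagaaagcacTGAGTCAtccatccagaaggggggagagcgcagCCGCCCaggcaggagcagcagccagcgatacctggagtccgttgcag
The Vcan stretch held a CCAAT match, as ATTGG, and a GC box match, as CCGCCC. A further Vcan start, whose stretch overlaps the printed one, had the same GC box match alone. The Ptn stretch held a GC box match and an AP-1 match, TGAGTCA, 80 to 74 bases before the start. The Hapln1 stretch held none of the 5 motifs, which says only that these letters are not in this window. No matches overlapped. Of 33469 rat windows of the same length, 34.0% held the CCAAT box, 30.5% the GC box, 6.34% the AP-1 letters, 12.9% the TATA box and 11.97% the E-box. GC content was 61.6% for Vcan, 54.0% for Hapln1 and 57.6% for Ptn, against a median of 51.2% over all windows.

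PNFLX 2 and CONTROL 1 differed from the remaining arrays across all probes, on a first principal component with 62.6% of the variance. Their array medians were 0.59 (PNFLX 2) and 0.79 (CONTROL 1) on the log2 scale, against -0.18 to 0.09 for the other 6, so differences without both arrays are also given. The deposited values are log2 differences from the CONTROL median of each probe and hold no level. Background-subtracted signals are known only for the listed probes, and calls of detection above background were not used here. The lowest listed signal was 1.14 to 9.09 on PNFLX arrays and 2.38 to 14.9 on CONTROL arrays. On PNFLX 1 it was 2.97 and was shared exactly by 57 listed probes, all of them listed as lower (25.3% of 225), so a value there marks a floor and the true one may lie further down. Markers of neurons, astrocytes, oligodendrocytes and microglia were not among the listed probes, so the labelled tissue was not checked against them here.

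Vcan was lower on all 4 PNFLX arrays than on any CONTROL array. Its log2 values were -3.98, -2.05, -2.84 and -4.21 on PNFLX 1 to 4, against 0.51, -0.06, 0.06 and -0.61 on CONTROL 1 to 4. The signals behind them were 2.97, 18.8, 8.13 and 3.06 on PNFLX arrays and 93.7, 49.9, 54.5 and 25.02 on CONTROL arrays. PNFLX 1 stood exactly at the array's lowest signal and PNFLX 4 had 14 of the 450 listed signals at or under it, while PNFLX 2 was the highest of its group. The group means were -3.27 ± 1.01 for PNFLX and -0.03 ± 0.46 for CONTROL (log2, SD, n = 4 each). The difference of -3.24 ± 0.54 (log2, SE, limma) is 9.48-fold lower as listed. It was 2.90-fold with signals under 20 raised to 20, 1.38-fold with those under 50 raised to 50 and 2.05-fold with 50 added to every signal. Without PNFLX 2 and CONTROL 1 it was -3.47 (log2). In bulk tissue, fewer cells of a type and less RNA per cell cannot be told apart.

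Hapln1 was also lower on 3 PNFLX arrays, but PNFLX 2 lay within the CONTROL range. Its log2 values were -4.42, -0.20, -4.51 and -2.91 on PNFLX 1 to 4, against 0.53, 0.39, -0.39 and -0.66 on CONTROL 1 to 4. The signals were 2.97, 91.9, 3.46 and 10.2 on PNFLX arrays and 128, 92.5, 54.0 and 32.9 on CONTROL arrays. PNFLX 1 was again at its floor, PNFLX 3 had 12 of the 450 listed signals at or under it, and PNFLX 2 gave about the signal of CONTROL 2. The means were -3.01 ± 2.01 for PNFLX and -0.03 ± 0.58 for CONTROL (log2, SD, n = 4 each). The difference was -2.98 ± 0.95 (log2, SE, limma), or 7.87-fold lower as listed, against 2.67-fold and 1.49-fold with the floors of 20 and 50 and 2.00-fold with 50 added. It was -3.91 without PNFLX 2 and -3.73 without PNFLX 2 and CONTROL 1. Among the 225 probes listed as lower, 84 (37.3%) had a PNFLX value that reached into the CONTROL range.

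Ptn, the growth factor, was higher on all 4 PNFLX arrays and dim on the CONTROL arrays. Its log2 values were 3.65, 5.57, 5.52 and 6.11 on PNFLX 1 to 4, against 1.37, 0.62, -0.62 and -1.93 on CONTROL 1 to 4. The signals were 402, 2524, 1832 and 2687 on PNFLX arrays and 116, 54.7, 23.3 and 6.90 on CONTROL arrays. All PNFLX values lay above all CONTROL values, and PNFLX 1 was the lowest of its group, as for 52 of the 225 probes listed as higher (23.1%). The means were 5.21 ± 1.08 for PNFLX and -0.14 ± 1.45 for CONTROL (log2, SD, n = 4 each). The difference of 5.35 ± 0.83 (log2, SE, limma) is 40.8-fold higher as listed, against 31.3-fold and 20.6-fold with the floors of 20 and 50 and 14.7-fold with 50 added. It was 5.74 (log2) without PNFLX 2 and CONTROL 1. By size of this difference Ptn ranked number 6 from the top of all 15207 probes, while Vcan ranked number 54 and Hapln1 number 71 from the bottom.

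**Figure D1:**
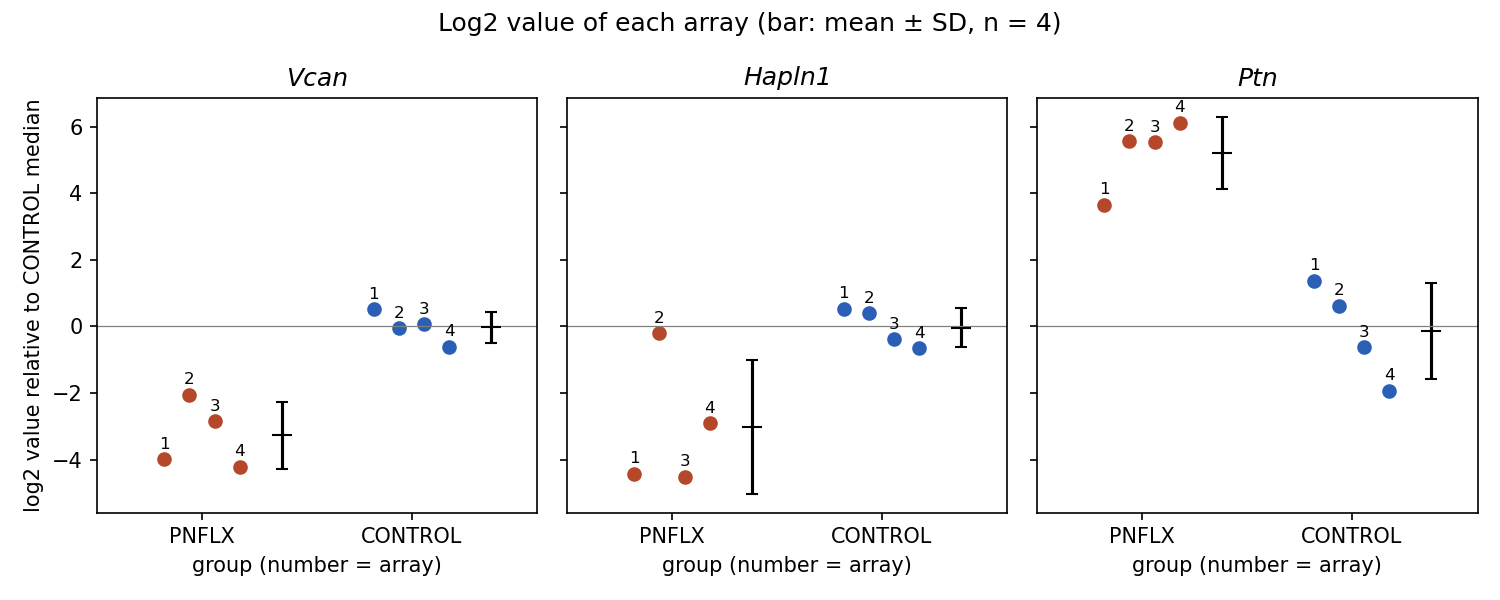
Log2 value relative to the CONTROL median (y axis) of Vcan, Hapln1 and Ptn on each PNFLX and CONTROL array (points, numbered by array), with the mean and SD of each group (bars, n = 4). The Hapln1 value of PNFLX 2 (-0.20) sits among the CONTROL values, whereas the groups of Vcan and Ptn lie apart.

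**Figure D2:**
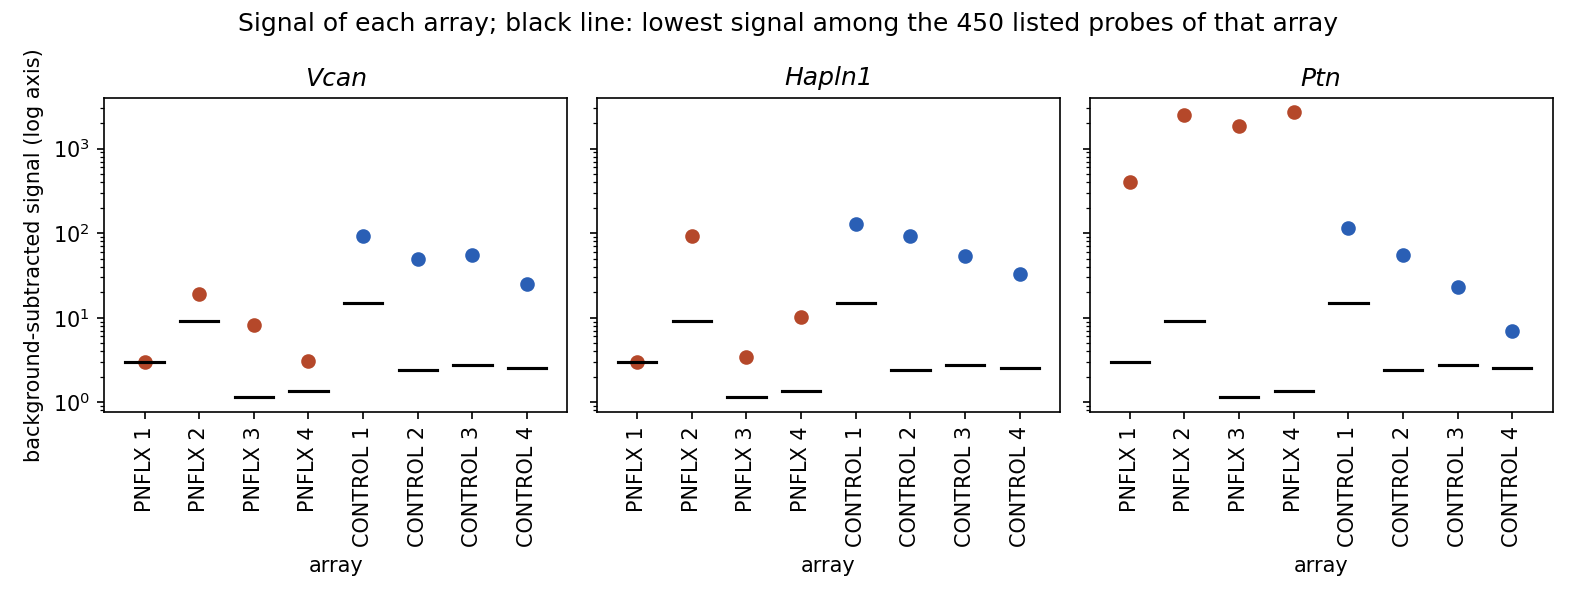
Background-subtracted signal (y axis, log scale) of Vcan, Hapln1 and Ptn on each array (points), with the lowest signal among the 450 listed probes of that array (black lines). Vcan and Hapln1 both sit on the line of PNFLX 1 at 2.97, and the Ptn signals of PNFLX arrays run between 402 and 2687, far above the lines.

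These differences chose the genes, so they are a description and not a test. The authors' criteria for their tables were a mean PNFLX log2 value at least 0.4 from 0 and an unadjusted p of at most 0.05, which 450 of 15207 probes (2.96%) met, 1.48% as higher and 1.48% as lower. The authors' deposited table gives a mean PNFLX value of 5.21 and p = 0.00102 for Ptn, -3.27 and p = 0.00112 for Vcan, and -3.01 and p = 0.0295 for Hapln1. Of the 225 probes listed as lower, 18 had a smaller p than Vcan and 153 a smaller p than Hapln1, and of those listed as higher 22 had a smaller p than Ptn, in the authors' deposited table. Nearest to the p criterion lay Cacna1c just inside, at 0.0498 with a difference of 0.55 (log2), and an unnamed probe just outside, at 0.05003 with a difference of -0.41. With adjustment over all probes, 0 of the 3 genes passed 0.05 in limma, where 18 probes (0.118%) did (0.0592% as higher and 0.0592% as lower), and all 3 had an unadjusted p under 0.05, as 2.58% of probes had. The number of passing probes depended on single arrays, with 2 to 4 left without CONTROL 2, CONTROL 3, CONTROL 4 or PNFLX 4 (2, 3, 4 and 2). The adjusted p in limma was 0.127 for Ptn, 0.144 for Vcan and 1.00 for Hapln1. The groups did not overlap for 2 of the 3 genes, as for 2.32% of all probes (1.18% higher and 1.14% lower) and 63.1% of the listed ones, and nothing is read from these counts.

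The PNFLX 2 and CONTROL 1 arrays moved the Hapln1 value by more than that of the other genes. Without both arrays 0 of the 3 genes passed in limma, where 0.263% of probes did, and the difference was -3.73 ± 0.53 for Hapln1, -3.47 ± 0.43 for Vcan and 5.74 ± 0.87 for Ptn (log2, SE, limma). Within that pair, PNFLX 2 minus CONTROL 1 was -0.73 for Hapln1, -2.56 for Vcan and 4.196 for Ptn (log2, 1 array each, no test). With the pair as a block in the model, Vcan alone of the 3 genes passed (adjusted p = 0.0244 in limma, where 0.283% of probes passed), with Ptn at 0.0509 and Hapln1 at 0.216. The Vcan adjusted p ranged from 0.00783 to 1.00 over the 19 alternative fits, and 2 of them passed, the block and array weights. With array weights all 3 genes passed in limma, as did 0.986% of probes.

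Taken per array, pleiotrophin and the matrix pair lay far apart on every PNFLX array. The log2 value of Ptn minus the mean of Vcan and Hapln1 was 7.85, 6.69, 9.20 and 9.67 on PNFLX 1 to 4, against 0.85, 0.45, -0.45 and -1.29 on CONTROL 1 to 4. The means were 8.35 ± 1.35 for PNFLX and -0.11 ± 0.96 for CONTROL (log2, SD, n = 4 each). A scaling constant per array cancels in this difference, so it was 8.46 (PNFLX minus CONTROL) as deposited and likewise with medians or 75th percentiles set equal. The treatment of low signals does not cancel: the difference was 6.44 with a floor of 20, 4.88 with a floor of 50 and 4.90 with 50 added, and both matrix genes were at the floor on PNFLX 1. It was 9.34 without PNFLX 2 and CONTROL 1. Its direction is fixed by taking 2 genes listed as lower and 1 listed as higher.

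Vcan and Hapln1 were also set against each other within each array. As listed, Vcan minus Hapln1 was 0.44, -1.85, 1.67 and -1.31 (log2) on PNFLX 1 to 4, against -0.02, -0.45, 0.45 and 0.04 on CONTROL 1 to 4. Its mean was -0.26 ± 1.62 for PNFLX and 0.01 ± 0.37 for CONTROL (SD, n = 4 each), so the means differed by less than the spread between arrays, and the PNFLX spread was the wider. On PNFLX 1, 3 and 4 both genes had signals under 20, so no order is read there. With a floor of 20 the difference was 0.44 on each of those 3 arrays, and with 50 added it was 0.29, 0.41 and 0.11. The 0.44 reflects only the CONTROL medians of Vcan and Hapln1, since both genes stood at the floor. On PNFLX 2 Vcan was the lower relative to its CONTROL median in every treatment, at -1.76 and -0.49 with the floors of 20 and 50 and -0.75 with 50 added. The PNFLX minus CONTROL difference of Vcan minus Hapln1 was -0.27 as listed and 0.25 without PNFLX 2 and CONTROL 1. The latter uses only PNFLX 1, 3 and 4 of the PNFLX arrays, so no change of order is read from it. Among CONTROL arrays all 3 genes had CONTROL 1 highest and CONTROL 4 lowest, a pattern of 40 of the 450 listed probes (8.89%).

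**Figure D3:**
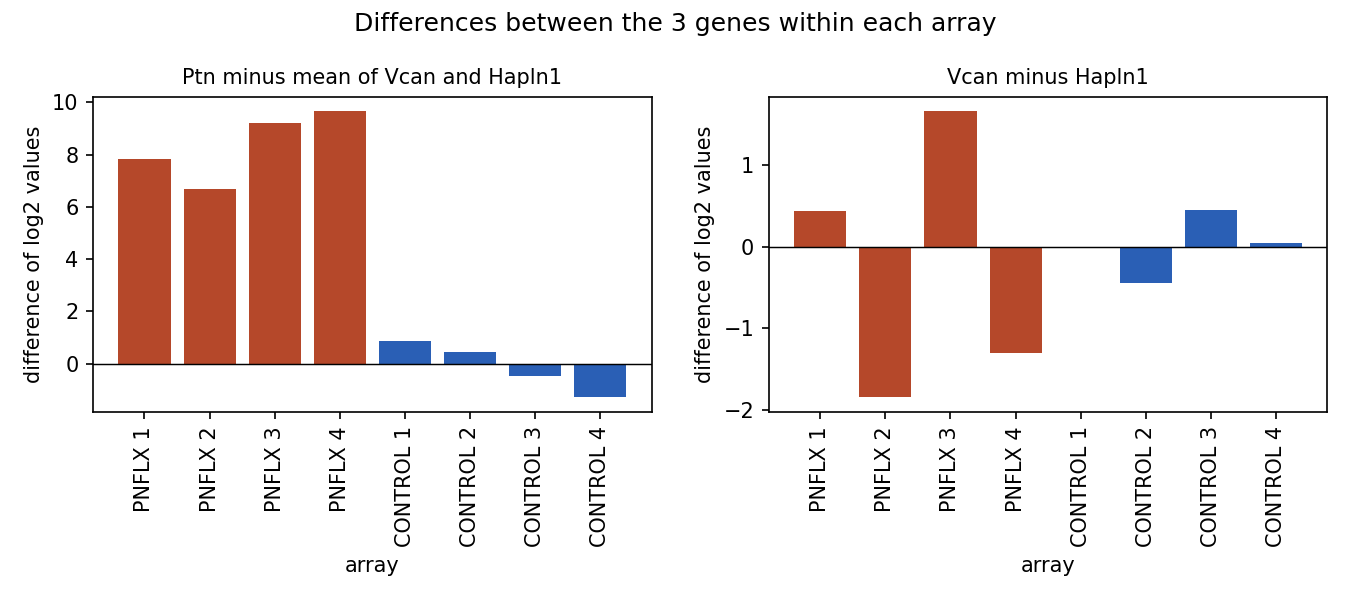
Difference of log2 values within each array (bars, y axis) for Ptn minus the mean of Vcan and Hapln1 (left) and for Vcan minus Hapln1 (right), PNFLX arrays before CONTROL arrays. The left differences are 6.69 to 9.67 on PNFLX arrays and -1.29 to 0.85 on CONTROL arrays, while the right ones, as listed, fall on both sides of 0 in both groups, with signals under 20 for both genes on PNFLX 1, 3 and 4.

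Variation between arrays of a group was large for Hapln1 and Ptn among the listed probes. The SD over PNFLX arrays was 1.01 for Vcan and 2.01 for Hapln1 (log2), where probes listed as lower had a median SD of 0.75. That of Hapln1 was at or above 93.8% of them and that of Vcan at or above 63.6%. For Ptn the SD was 1.08 over PNFLX and 1.45 over CONTROL arrays, against medians of 0.31 and 0.52 for probes listed as higher, at or above 98.2% and 95.1% of them. The CONTROL SDs of Vcan (0.46) and Hapln1 (0.58) were nearer the median of their list (0.39). None of these 6 groups of 4 values had 1 array far from the rest by Dixon's criterion.

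How low signals are handled set the size of the matrix gene differences far more than that of Ptn. All 4 PNFLX signals of Vcan and 3 of Hapln1 were under 20, while none of their CONTROL signals was. With signals under 20 raised to 20, Vcan was at -1.53 ± 0.28, Hapln1 at -1.41 ± 0.51 and Ptn at 4.97 ± 0.71 (log2 difference, SE without moderation, n = 4 per group), or 2.90-fold and 2.67-fold lower and 31.3-fold higher. With a floor of 50, which also covers 2 CONTROL signals of Vcan, 1 of Hapln1 and 2 of Ptn, the differences were -0.46 ± 0.20, -0.57 ± 0.24 and 4.36 ± 0.57. The groups of Vcan then overlapped, those of Hapln1 still did, and those of Ptn did not. With 50 added to every signal they were -1.04 ± 0.09, -0.999 ± 0.24 and 3.88 ± 0.54, and the groups of all 3 genes lay apart. The direction was the same for each gene in all of these. The listing had already chosen that direction on these same arrays, so it is not read as support under any of them. For Vcan the floor of 20 also lay between the PNFLX and the CONTROL signals. The scaling constant of each array was subtracted after the floor, so equal floored signals gave unequal log2 values. With the floor of 50 the Vcan values were -0.13, -0.86, -0.44 and -0.41 on PNFLX 1 to 4, relative to the CONTROL median. With the floor of 20 they were -1.23, -1.96, -1.54 and -1.50. This PNFLX spread comes only from the scaling constants, as does that among the 3 floored Hapln1 values. With a floor, the SEs therefore do not measure how Vcan varied between PNFLX arrays, and do so only in part for Hapln1. Adding 50 compresses the spread of low signals, which narrows the SE of Vcan. The folds of Vcan and Hapln1 thus depend on PNFLX signals near background. That of Ptn depends, to a lesser extent, on dim CONTROL signals, of which 1 was under 20 and 2 under 50. With 50 added it was 14.7-fold.

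**Figure D4:**
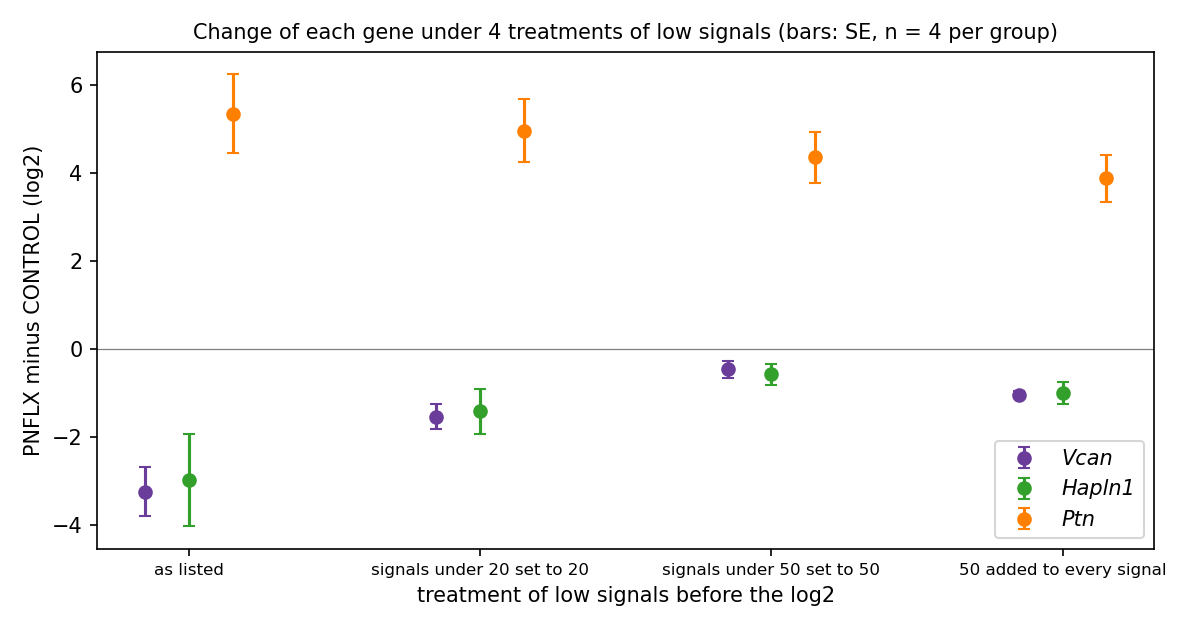
PNFLX minus CONTROL difference (y axis, log2) of Vcan, Hapln1 and Ptn as listed and under 3 other treatments of low signals (x axis), points with SE without moderation (n = 4 per group). Ptn stays between 3.88 and 5.35, and Vcan and Hapln1 shrink to -0.46 and -0.57 with a floor of 50. With a floor, the spread among floored PNFLX values of Vcan and Hapln1 in these SEs comes only from the array scaling constants.

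Genes of the same matrix and signalling systems were sought among the listed probes, since only these carry names. Of 30 genes of hyaluronan matrix and perineuronal nets, Vcan and Hapln1 themselves were the 2 listed, where 2.96% of all probes were. Of 21 ligands and receptors of pleiotrophin and midkine, Ptn and Sdc2 were listed, both as higher. Of 49 genes of sulfated sugar chain synthesis and proteoglycans Sulf1 was listed, and of 19 collagens, laminins and related matrix genes Lamc1 and Col4a1, all 3 as higher. Listing used these same arrays, so the directions are not independent evidence. In limma over all probes 0 of these 7 genes passed the adjusted threshold, as did 0.118% of all probes. All 7 had an unadjusted limma p under 0.05, as did 2.58% of all probes. Listing already required an unadjusted p of at most 0.05 in the authors' own test on these arrays, so nothing is read from that count. Ptprz1, Mdk, Acan, Bcan, Ncan, Tnr and the hyaluronan synthases carry no name in the tables used and were not analysed here.

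Sdc2, syndecan-2, is a membrane proteoglycan whose heparan sulfate chains bind growth factors. Its log2 values were 2.93, 2.53, 3.18 and 3.23 on PNFLX 1 to 4, against 2.20, -1.28, -0.23 and 0.23 on CONTROL 1 to 4. CONTROL 1 came close to the PNFLX values, the other 3 did not. The difference was 2.74 ± 0.69 (log2, SE, limma adjusted p = 0.609), and 3.54 ± 0.42 without CONTROL 1 and PNFLX 2, while PNFLX 2 minus CONTROL 1 was 0.33. Median signals were 80.2 in PNFLX and 7.33 in CONTROL.

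Sulf1, an extracellular sulfatase that trims 6-O-sulfates from heparan sulfate, was at 0.77 ± 0.30 (log2 difference, SE), with signals of 22.2 to 39.4 on PNFLX and 10.9 to 22.0 on CONTROL arrays, and at 0.96 without PNFLX 2 and CONTROL 1. Lamc1, the laminin gamma 1 chain of basement membranes, was at 1.98 ± 0.62, and its CONTROL 1 value (1.92) lay within the PNFLX range of 1.90 to 3.06. Its median signals were 24.6 in PNFLX and 5.07 in CONTROL, and it was at 2.26 without the same pair of arrays. Col4a1, a basement membrane collagen, was at 0.83 ± 0.34 from median signals of 652 and 325 (PNFLX and CONTROL), with overlapping groups, and at 0.71 without that pair. The CONTROL signals of Sdc2, Sulf1 and Lamc1 were all under 50, at most 49.4, 22.0 and 28.1. Their differences are given as listed and were not recomputed with a floor. The limma adjusted p was 1.00 for Sulf1, Lamc1 and Col4a1.

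Of the marker lists, oligodendrocyte precursors had 1 of 9 genes listed, which was Vcan itself. Vessel cells had 4 of 8 listed, all as lower, where 1.48% of all probes were listed as lower. Listing used these same arrays, so nothing is read from this share. The basement membrane genes Lamc1 and Col4a1 were listed as higher. Of the 4 vessel cell genes, 0 passed the adjusted threshold in limma (0.118% of all probes did). Rgs5 was the 1 with an unadjusted limma p under 0.05 (2.58% of all probes had one). Rgs5, a pericyte marker, was at -3.06 ± 0.77 (log2 difference, SE), Anpep at -0.66 ± 0.30, the tight junction gene Cldn5 at -0.57 ± 0.29 and the potassium channel Kcnj8 at -0.43 ± 0.22. Without PNFLX 2 and CONTROL 1 they were at -3.22, -0.72, -0.51 and -0.36 in the same order. Rgs5 values ran from -5.00 to -1.48 on PNFLX and from -0.63 to 1.12 on CONTROL arrays, and PNFLX 2 was its highest PNFLX array, as for Vcan and Hapln1 and for 37.8% of the probes listed as lower. The remaining 6 marker lists (oligodendrocytes, astrocytes, interneurons, excitatory neurons, microglia and immune cells, meninges and fibroblasts) had no listed gene. A part of cell makeup in the Vcan, Hapln1 and Ptn values was not tested.

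**Figure D5:**
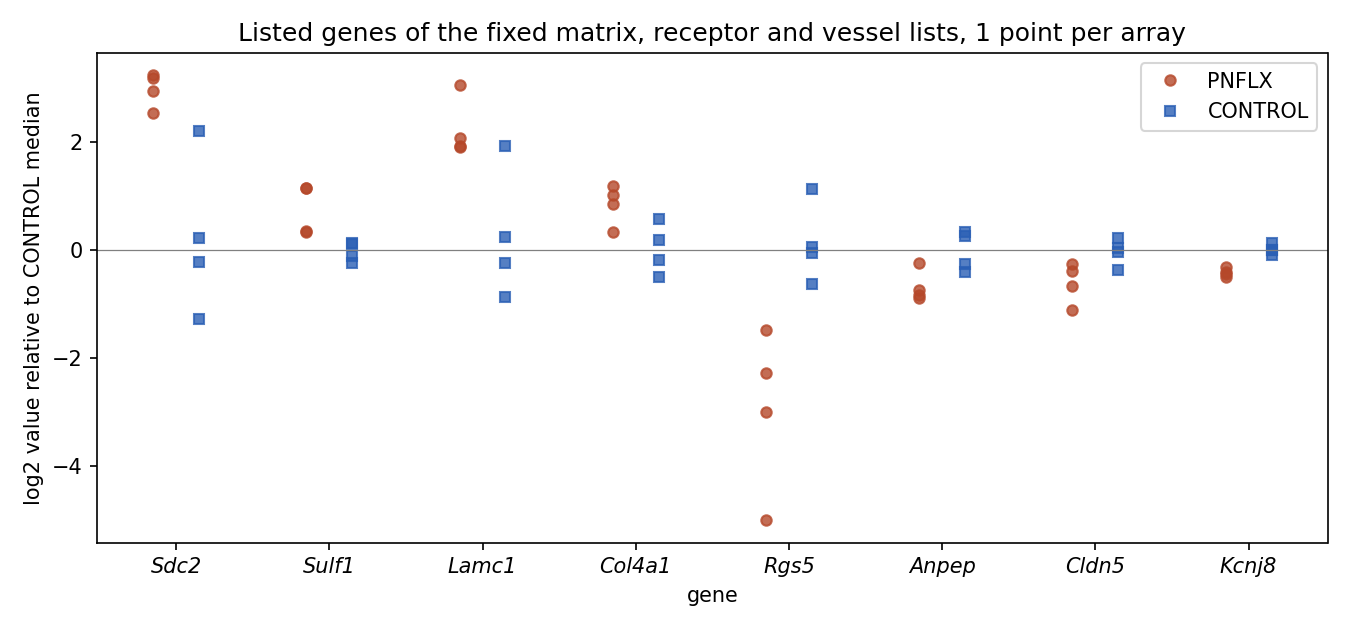
Log2 value relative to the CONTROL median (y axis) of 8 listed genes from the matrix, receptor and vessel lists (x axis), PNFLX arrays as circles and CONTROL arrays as squares. Sdc2 has PNFLX values of 2.53 to 3.23 and 1 CONTROL array at 2.20, and Rgs5 has the lowest PNFLX value, at -5.00.

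Profiles over the 8 arrays were compared by the mean absolute difference of log2 values, within the named listed probes. The medians given beside them are over probes of both directions. Probes listed in the opposite direction raise these medians, and a median within the same direction was not taken. The nearest to Vcan were Disp1, a release factor of Hedgehog ligands (0.38), Prl3d4 of the prolactin family (0.43) and the sulfotransferase Sult5a1 (0.47), where the median over named listed probes was 2.01. The nearest to Hapln1 were Urah, an enzyme of urate breakdown (0.47), Armc8 (0.50) and Gja5, the gap junction protein connexin 40 (0.51), against a median of 1.96. Of these 6 genes, 5 were at the PNFLX 1 floor, with signals of 2.97, and Gja5 was at 3.30. The nearest to Ptn lay further off: Bri3 (0.98), the myosin phosphatase subunit Ppp1r12a (1.03) and the uridylyltransferase Tut4 (1.06), against a median of 3.07. Bri3 had PNFLX signals of 1808 to 2626 and CONTROL signals of 17.1 to 48.2.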

How the data were processed

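Total RNA of whole mPFC was labelled with Cy3 and hybridised in 1 colour, per the labels' protocols. The deposited value table and the authors' sheets of changed genes hold log2 values per array, which are differences from the CONTROL median of the probe (that median was within 4.8e-07 of 0 in every probe). The sheets add a background-subtracted signal intensity, which is Agilent's gProcessed signal per the file headers. They also give the authors' p-value, which is unadjusted. Subtracting an array constant and a probe constant from the logged intensity gave back the deposited log2 values to within 5.1e-07. How the array constants were set is not given in the sources used here. Sheet columns were matched to samples by source name, which numbers the arrays differently from the titles (the sheets' Control 4 and 5 and PNFLX 5 are CONTROL 3, CONTROL 4 and PNFLX 4 by title). Title numbers are used.

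Symbols came from the sheets, updated by gene ID or symbol through the RefSeq table for GRCr8 (433 of 450 probes matched). All 15207 probes were fitted with limma 3.58.1 (lmFit, eBayes, two-sided) in R 4.3.3, PNFLX minus CONTROL, all 8 arrays, no covariates, Benjamini-Hochberg adjustment, threshold 0.05. Tables and figures were made with Python 3.11.15. The fit was tested on simulated data. No 2 arrays were identical. Titles number the arrays alike in both groups. Source names do not, and title number 3 joins arrays with different source numbers. Correlations of deviations across probes between same-numbered arrays were -0.21, -0.67, 0.44 and 0.35 for numbers 1 to 4. The correlation between PNFLX 2 and CONTROL 1 was 0.85, so these values do not settle whether the numbers pair the arrays. Signals were also recomputed with floors of 20 and 50 and with 50 added. Genes, lists, tests and alternatives were chosen with earlier results of these data known. The genes to name were all listed genes of 12 lists and the 3 nearest profiles per gene. Cacna1c was named after its value was seen. Set tests were not run.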

Additional observations from a re-analysis of the deposited data

Results flagged for a closer look

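Among 48 groups of 4 arrays examined (the named genes, both within-array differences, array medians and array SDs), Dixon's criterion marked 1 array in each of 3 groups, where chance flags about 1 in 20 groups, or 2.4 here. The groups share the same 8 arrays. Gja5 was at 0.22 (log2) on PNFLX 2, against -4.17 to -3.71 on the other PNFLX arrays (ratio of gap to range 0.895). Lamc1 was at 3.06 on PNFLX 2, against 1.90 to 2.07 on the other PNFLX arrays (ratio 0.853). The SD over all probes was 2.01 on CONTROL 1, against 0.54 to 0.70 on the other CONTROL arrays (ratio 0.889). All 3 lay on the pair of arrays that stood apart across probes.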

How the results depend on the processing

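The differences of Vcan, Hapln1 and Ptn kept their sign in all 22 alternatives run for each. The listing had already chosen that sign on these same arrays, so it is not read as support in any of them. These differences could not change with no moderation, with a variance trend or without the probes of lowest variance. The differences were also fixed under the replicate block and under CONTROL 1 and PNFLX 2 as a block. They moved by more than the SD pooled over both groups only with the treatment of low signals: with a floor of 20, 50 or an offset of 50, Vcan was at -1.53, -0.46 and -1.04, and Hapln1 at -1.41, -0.57 and -0.999, while Ptn moved only with the offset (3.88). Ptn minus the mean of the other genes was then 6.44, 4.88 and 4.90, 9.77 with array weights and 9.87 without CONTROL 1, PNFLX 1 and PNFLX 2, a setting chosen after seeing the data. Leaving out single arrays gave -3.65 to -2.93 for Vcan, -3.91 to -2.48 for Hapln1, 4.76 to 5.87 for Ptn and 8.02 to 9.02 for Ptn minus the mean of the others, with 0 of the 3 genes past the adjusted threshold in limma and all 3 at an unadjusted p under 0.05 in each. All 3 passed with array weights, and 1 (Vcan) with CONTROL 1 and PNFLX 2 as a block. Of all probes, 10 passed with quantile normalization, 4 with 75th percentiles set equal, 0 with a variance trend (323 at an unadjusted p under 0.05, among them 2 of the 3 genes, without Ptn), 150 with array weights, 40 without CONTROL 1 and PNFLX 2, 43 with them as a block and 2 to 26 without single arrays, against 18. With the replicate block 0 probes passed in limma, with 346 at an unadjusted p under 0.05, all 3 genes among them. Vcan (adjusted p = 0.595 in limma), Ptn (0.776) and Hapln1 (1.00) did not pass with or without this block. Only 1 of 8 arrays correlated best with its own title number. That count cannot settle whether the numbers pair the arrays, since CONTROL 1 and PNFLX 2 deviated together (correlation 0.85). The cause of these shifts was not tested. Signals near background limit the folds of Vcan and Hapln1, through the PNFLX arrays, and to a lesser extent that of Ptn, through the CONTROL arrays.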
